A study of Mus musculus with 30 samples.

Results

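Cathepsins are the proteases of the lysosome, and the 10 described here are Ctsa, Ctsb, Ctsc, Ctsd, Ctsf, Ctsh, Ctsk, Ctsl, Ctss and Ctsz. They were taken by gene symbol from a table of 17420 mouse genes measured in 30 libraries. Each of 15 male mice, all 4 months old, gave a library of quadriceps muscle and 1 of spinal cord, and there were 3 mice in each of 5 groups. The study compared wild-type (WT) mice with mice lacking Gaa (KO), a model of Pompe disease, and asked what gene therapy with a secreted enzyme does to them. WT and Gaa KO mice were on the B6;129 background, called B6129 here. Further WT, KO and treated KO mice were on B6;129;DBA2/J, called DBA mix, and the labels give all 3 of these groups, WT included, the allele Ltbp4D36/D36. Treated mice had received, as newborns, an AAV9 vector for secreted human GAA by intravenous injection, under a liver-muscle promoter. An untreated KO group was sampled on each background and a treated group on DBA mix alone, and no group given an empty or control vector is labelled. The columns of the table carry the prefix A for B6129 and B for DBA mix, so the background and the prefix cannot be told apart.

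Gaa encodes acid alpha-glucosidase, which breaks down glycogen in the lysosome. In quadriceps its signal was 308, 258 and 259 in the WT libraries and 16.2, 15.4 and 15.7 in the KO libraries on B6129. On DBA mix it was 214, 169 and 254 in WT, 11.6, 16.5 and 16.7 in KO, and 17.1, 18.9 and 17.9 in treated KO. The cord libraries ranged from 131 to 236 in WT and from 8.09 to 17.7 in KO and treated KO. All libraries thus matched their genotype labels. The values are of the mouse gene, and how reads of the human transgene were counted is not given in the sources used here. Muscle markers summed to 126613 or more in every quadriceps library and to 107 to 1590 in cord, and cord markers to 11984 or more in every cord library and to 13.0 to 35.1 in quadriceps. Libraries held 16854081 to 37136087 reads in quadriceps and 19208733 to 34207758 in cord. Mitochondrial genes took 6.99% to 7.70% of cord reads on B6129 and 13.2% to 17.1% on DBA mix. All 10 cathepsins passed the filter on low values in both tissues, and the thinnest value among them rested on 43 reads.

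Cathepsins are made as inactive precursors, carried to the lysosome largely by receptors for mannose 6-phosphate, and activated by cleavage in its acid lumen. Ctsd is an aspartic protease and Ctsa a serine carboxypeptidase that also shields the beta-galactosidase Glb1 and the sialidase Neu1. The other 8 are cysteine proteases of the papain family. Among these Ctsb and Ctsl are broadly expressed, Ctsc activates serine proteases of immune cells, and Ctsh and Ctsz trim the ends of peptides. Ctsk is best known for degrading collagen in osteoclasts, Ctss for processing the invariant chain (Cd74) in antigen-presenting cells, and Ctsf is a further papain-type member. Lysosomal genes are often activated by the factor TFEB, which binds E-boxes in their promoters, while the myeloid factor PU.1 binds purine-rich motifs.

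Promoter sequences from RefSeq (build GRCm38.p6, 250 bases before to 50 after the start site) were found for 8 of the 10 members, with 2 start sites for Ctsa. The windows of Ctsa and Ctsd are shown because they were the members with the core of the lysosomal E-box, TCACGTG, and those of Ctsk and Ctss because they hold GAGGAAG, a purine-rich core bound by PU.1, and were the members that moved most in muscle. Capitals mark the matches, on either strand. The E-box CACGTG lies within TCACGTG, and TCACGTGA matches TCACGTG once on each strand.
Ctsa, second start site, chr2:164833523-164833822, plus strand: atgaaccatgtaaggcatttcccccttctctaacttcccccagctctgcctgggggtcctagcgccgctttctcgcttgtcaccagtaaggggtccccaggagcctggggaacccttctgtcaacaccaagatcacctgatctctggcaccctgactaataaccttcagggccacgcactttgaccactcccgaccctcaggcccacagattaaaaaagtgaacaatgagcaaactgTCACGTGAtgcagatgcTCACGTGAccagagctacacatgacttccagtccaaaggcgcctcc
Ctsd, chr7:142387778-142388077, minus strand: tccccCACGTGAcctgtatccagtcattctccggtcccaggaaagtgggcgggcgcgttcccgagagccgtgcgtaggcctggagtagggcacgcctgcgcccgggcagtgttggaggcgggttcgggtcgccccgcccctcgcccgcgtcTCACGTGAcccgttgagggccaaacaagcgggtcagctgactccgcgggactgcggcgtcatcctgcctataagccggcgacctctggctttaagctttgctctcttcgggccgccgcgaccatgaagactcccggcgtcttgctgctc
Ctsk, chr3:95498960-95499259, plus strand: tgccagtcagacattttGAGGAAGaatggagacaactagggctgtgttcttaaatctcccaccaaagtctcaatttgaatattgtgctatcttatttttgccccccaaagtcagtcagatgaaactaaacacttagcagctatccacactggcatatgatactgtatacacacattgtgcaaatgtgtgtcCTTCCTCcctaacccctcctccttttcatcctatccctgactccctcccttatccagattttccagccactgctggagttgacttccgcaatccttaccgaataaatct
Ctss, chr3:95526536-95526835, plus strand: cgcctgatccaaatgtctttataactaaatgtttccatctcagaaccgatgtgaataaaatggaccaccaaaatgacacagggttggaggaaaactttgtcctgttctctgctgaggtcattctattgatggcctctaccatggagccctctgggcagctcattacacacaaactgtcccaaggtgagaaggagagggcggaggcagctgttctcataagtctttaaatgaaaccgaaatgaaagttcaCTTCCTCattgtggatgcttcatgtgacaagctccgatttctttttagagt
CACGTG occurred 2 times in each of the Ctsa and Ctsd windows and 1 time in each of those of Ctsl and Ctsf, and GAGGAAG 2 times in those of Ctsk and Ctsc and 1 time in that of Ctss. Ctsz and the first Ctsa window held none of the 3 motifs. Of 32851 RefSeq promoter windows of the same length, 7.15% held CACGTG, 3.77% TCACGTG and 13.6% GAGGAAG. These matches describe letters and do not show that a factor binds there.

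Per kilobase of exon, Ctsd was the most abundant cathepsin in all 10 groups. In WT quadriceps on B6129 its level was 395 ± 40.6 signal per kb (SD, n = 3), which was 74.0% of the summed level of the 10 members, followed by Ctsb at 72.6 ± 8.31 and Ctsz at 21.7 ± 1.84. Ctsa (12.1 ± 0.349) and Ctsl (12.0 ± 1.08) came next and their libraries overlapped. Ctsc stood at 6.80 ± 0.489, Ctsf at 4.92 ± 0.915, Ctsk at 3.44 ± 1.02, Ctss at 2.59 ± 0.492 and Ctsh at 1.74 ± 0.206, and neighbours from Ctsf to Ctss overlapped. In WT cord on B6129 the order opened with Ctsd (108 ± 3.56 per kb), Ctsb (73.6 ± 0.466) and Ctss (36.2 ± 1.17), and Ctsc was lowest (1.16 ± 0.0457). Ctss thus had rank 9 in muscle and rank 3 in cord. In KO quadriceps on B6129 Ctss had rank 4, level with Ctsl within the spread of the libraries, and Ctsd held 65.0% of the sum. The summed level was 533 ± 41.5 per kb in WT and 756 ± 11.3 in KO quadriceps on B6129, and 547 ± 92.2, 800.2 ± 15.4 and 535 ± 23.7 in WT, KO and treated KO on DBA mix. In cord the sums were 271 ± 3.09 and 465 ± 16.7 on B6129, and 306 ± 18.0, 489.9 ± 13.9 and 408 ± 51.3 on DBA mix. Middle ranks depended on the length used: with the longest transcript in place of all exons Ctss had rank 10 in WT and rank 6 in KO quadriceps on B6129, while Ctsd stayed first in every group.

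In quadriceps lacking Gaa the cathepsins rose, with Ctss far ahead, then Ctsk and Ctsl. On B6129, 8 of 10 rose and 0 fell, against 35.8% of all tested genes called in either direction and 16.7% called up. On DBA mix 7 of 10 rose and 0 fell, against 39.4% called and 17.1% called up. The median difference of the 10 was 0.88 and 0.74 (log2 of signal + 0.5, KO minus WT), beside -0.02 and -0.04 over all genes. Libraries of KO and WT did not overlap for 9 and 8 of the 10 cathepsins, and for 53.9% and 46.4% of all genes. Calls are at an adjusted p under 0.05 from limma (Benjamini-Hochberg over all genes of the tissue). With signal scaled to library totals instead, the median of all genes moved to 0.24 in both comparisons, the calls went from 2359 up and 2687 down to 5049 and 1011 on B6129 and from 2414 and 3148 to 5004 and 1198 on DBA mix, and all 10 cathepsins were called up in both.

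**Figure D1:**
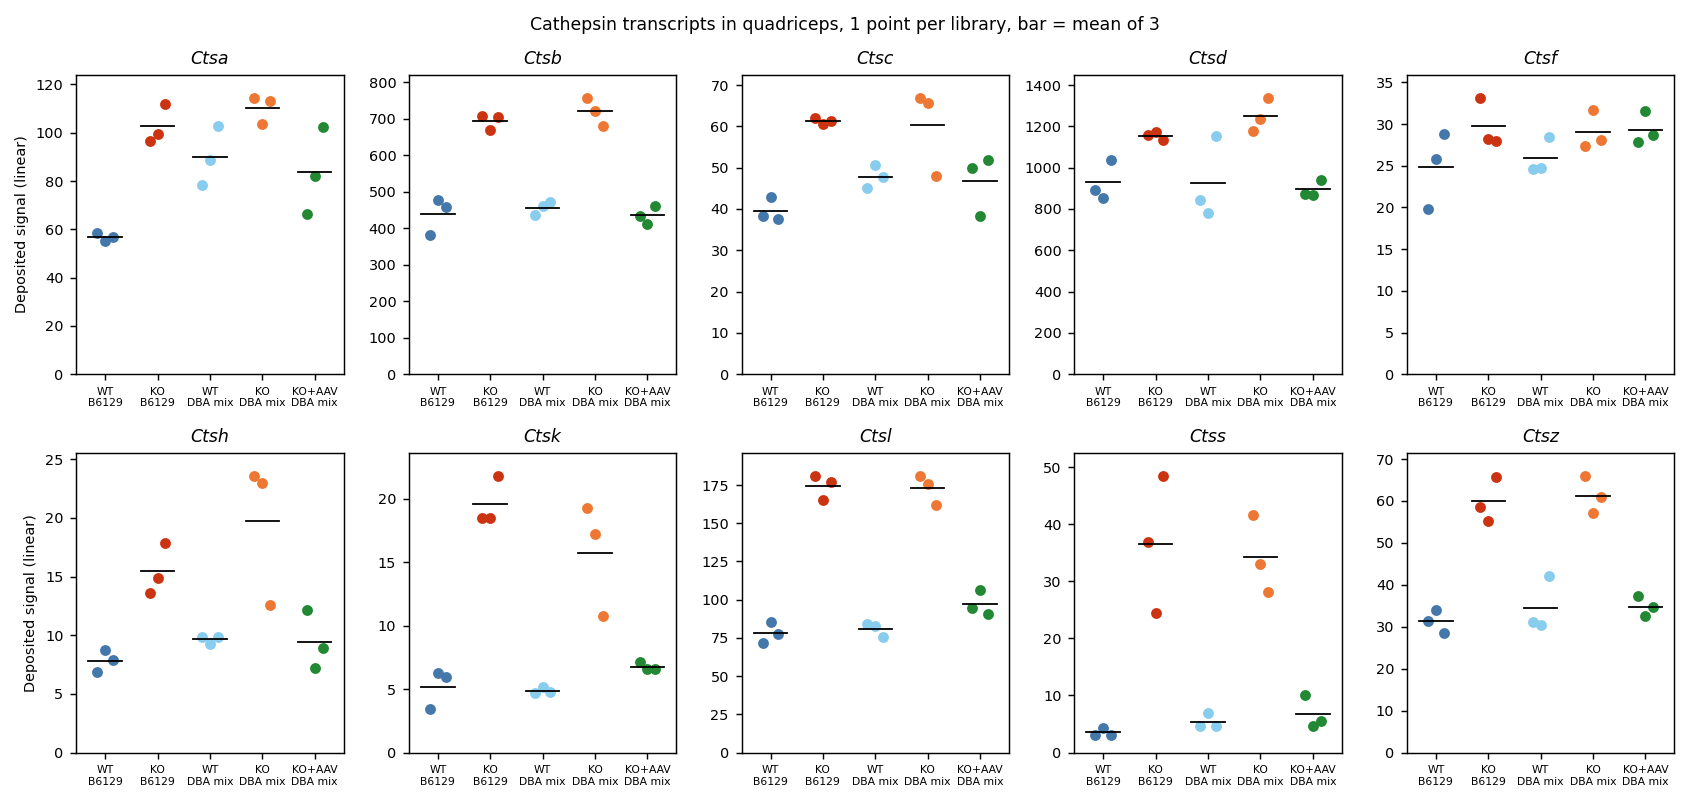
Deposited signal (linear y axis from 0) of the 10 cathepsins in quadriceps by group, with 1 point per library and a bar at the mean of 3. KO libraries of Ctsb, Ctsl, Ctss, Ctsk and Ctsz lie above the WT libraries on both backgrounds, and treated libraries lie nearer to WT than to KO (Ctss 4.71 to 10.0 against 4.58 to 6.89 in WT of DBA mix). Treated libraries of Ctsl (90.4 to 107 against 75.4 to 84.0) and Ctsk (6.58 to 7.17 against 4.71 to 5.15) all lie above those WT libraries.

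Ctss showed the largest change of the 10. Its signal was 3.13, 4.29 and 3.14 in WT and 37.0, 24.4 and 48.5 in KO quadriceps on B6129, a log2 difference of 3.17 ± 0.28 (SE, n = 3 each, limma adjusted p = 3.07e-06). On DBA mix it was 4.58, 6.89 and 4.63 in WT and 41.7, 33.1 and 28.1 in KO (2.57 ± 0.28, limma adjusted p = 1.60e-05). Every KO library was above every WT library on both backgrounds. Ctsk was 3.42, 6.25 and 5.93 in WT and 18.5, 18.5 and 21.8 in KO on B6129 (1.86 ± 0.21, limma adjusted p = 2.55e-05). On DBA mix Ctsk was 4.71, 5.15 and 4.79 in WT and 19.3, 17.2 and 10.8 in KO (1.55 ± 0.21, limma adjusted p = 9.32e-05). The KO libraries were again all higher, and among the DBA mix KO libraries replicate 8 was the lowest for both genes.

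Macrophage markers rose beside Ctss. All 12 of the macrophage and microglia list were in the table and were called up in both quadriceps comparisons, with medians of 2.08 and 1.28. Their summed signal was 47.6 to 61.4 in WT and 215 to 307 in KO on B6129, and 80.1 to 122 and 173 to 332 on DBA mix. None of the 12 had 0 reads throughout a group. Ctss stood at 0.0578 to 0.0700 of that sum in WT and at 0.113 to 0.158 in KO on B6129. On DBA mix it stood at 0.0381 to 0.0699 and 0.125 to 0.163, so its signal rose by more than the sum. It did not outpace every marker. On B6129 the means in WT and KO were 2.31 and 29.1 for Mpeg1, 12.0 and 31.1 for Csf1r, and 3.52 and 36.6 for Ctss. On DBA mix they were 3.16 and 22.7, 21.8 and 40.7, and 5.37 and 34.3. Fibroblast markers were called up in 4 of 6 and 3 of 6 cases and endothelial markers called down in 5 of 6 and 4 of 6, with fibroblast sums of 446 to 670 in WT and 990 to 1130 in KO on B6129, and 629 to 760 and 744 to 1426, which overlap, on DBA mix. The endothelial sums were 315 to 385 in WT and 194 to 212 in KO on B6129, and 258 to 292 and 147 to 204 on DBA mix. Muscle marker sums were lower in KO: 170773 to 182196 in WT and 136125 to 149084 in KO on B6129. On DBA mix they were 173094 to 204218 and 126613 to 149278, and 1 of 6 and 2 of 6 muscle markers were called down. Schwann markers were called up in 0 of 5 and 2 of 5 cases. In bulk tissue, more cells of a type and more RNA per cell cannot be told apart, and the part of these cell types in the cathepsin values was not tested.

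**Figure D2:**
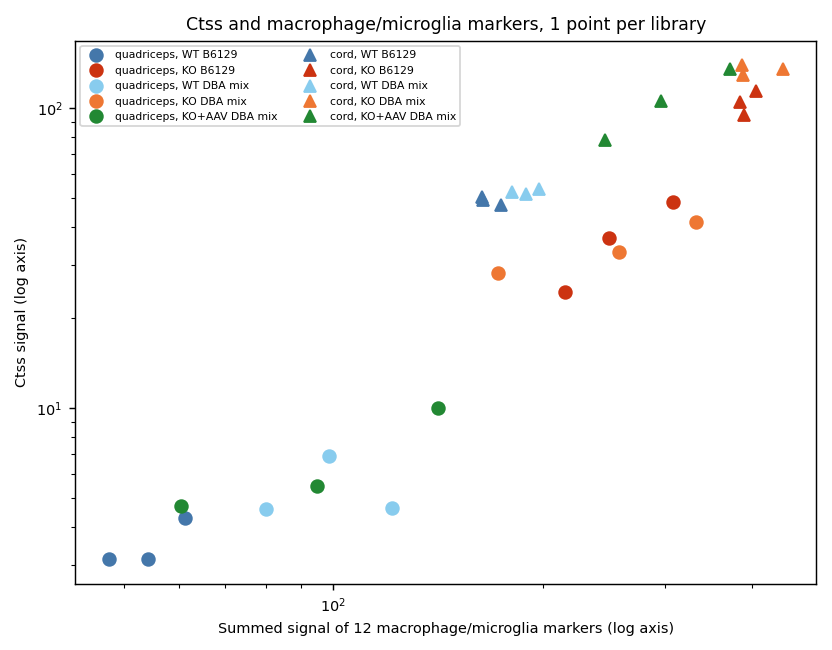
Ctss signal (y) against the summed signal of 12 macrophage and microglia markers (x), both on log axes, with 1 point per library, circles for quadriceps and triangles for cord. Quadriceps KO libraries (Ctss 24.4 to 48.5) lie above and to the right of WT and treated libraries, and all cord libraries have a Ctss of 47.4 or more.

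The broadly expressed Ctsl and Ctsb changed less in size but with little spread. Ctsl was 71.5, 85.5 and 77.4 in WT and 181, 165 and 177 in KO quadriceps on B6129 (1.16 ± 0.08, limma adjusted p = 4.86e-07). On DBA mix Ctsl was 84.0, 82.5 and 75.4 in WT and 181, 176 and 162 in KO (1.10 ± 0.08, limma adjusted p = 8.77e-07). The lowest KO library was well above the highest WT library in both. Ctsb was 383, 478 and 458 in WT and 708, 671 and 704 in KO on B6129 (0.67 ± 0.08, limma adjusted p = 4.22e-05). On DBA mix Ctsb was 436, 462 and 473 in WT and 759, 722 and 682 in KO (0.66 ± 0.08, limma adjusted p = 4.14e-05). The KO ranges of both genes overlapped between the backgrounds, and so did the WT ranges.

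Of the exopeptidases, Ctsz was 31.4, 33.9 and 28.6 in WT and 58.7, 55.3 and 65.7 in KO quadriceps on B6129 (0.92 ± 0.12). On DBA mix it was 31.2, 30.4 and 42.0 in WT and 66.0, 57.1 and 60.8 in KO (0.83 ± 0.12). Its groups did not overlap on either background. Ctsh rose by 0.93 ± 0.22 and 0.94 ± 0.22, from means of 7.84 and 9.66 to 15.4 and 19.7. Ctsc was 39.5 ± 2.84 in WT and 61.4 ± 0.777 in KO on B6129 (0.63 ± 0.13, limma adjusted p = 0.00190), and on DBA mix 45.1, 50.6 and 47.6 in WT and 67.0, 65.7 and 48.1 in KO (0.32 ± 0.13, limma adjusted p = 0.0657). KO replicate 8 was the low one there, inside the WT range, and without it Ctsc was called (0.47, limma adjusted p = 0.00682).

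Ctsd and Ctsf had the smallest differences on B6129, and Ctsf, Ctsa and Ctsc on DBA mix. Ctsd was 894, 856 and 1037 in WT and 1160, 1171 and 1134 in KO on B6129 (0.32 ± 0.12, limma adjusted p = 0.0526). On DBA mix Ctsd was 844, 781 and 1152 in WT and 1178, 1238 and 1339 in KO (0.45 ± 0.12, limma adjusted p = 0.00899). Its libraries did not overlap on either background. The B6129 difference was called by edgeR (adjusted p = 0.0481) and, by limma, without WT replicate 6 (0.40, adjusted p = 0.0341), and the DBA mix call was lost with only those 2 groups fitted (limma adjusted p = 0.0598). Ctsa was 56.8 ± 1.65 in WT and 103 ± 8.00 in KO on B6129 (0.84 ± 0.13, limma adjusted p = 2.62e-04), and 89.9 ± 12.3 and 110 ± 5.96 on DBA mix (0.30 ± 0.13, limma adjusted p = 0.0836). The WT libraries of Ctsa were higher on DBA mix than on B6129, and without WT replicate 4 the DBA mix difference was called (0.40, limma adjusted p = 0.0349). Ctsf was 24.8 ± 4.61 and 29.7 ± 2.97 on B6129 and 25.9 ± 2.18 and 29.0 ± 2.32 on DBA mix, and was called in neither. Whether the KO effect itself differed by background was also tested. In quadriceps 0 of 10 cathepsins were called by limma and by edgeR, against 0.283% of all genes called. An unadjusted limma p under 0.05 was found for 1 of 10 cathepsins and for 1537 of all 14113 genes. That member was Ctsa, with the smaller rise on DBA mix (0.30 ± 0.13 beside 0.84 ± 0.13 on B6129). The precision of this test differed between members: the 95% interval of the difference was -0.26 to 0.24 for Ctsb and -0.31 to 0.19 for Ctsl, and -1.45 to 0.27 for Ctss.

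After treatment the cathepsins of muscle were lower. Between treated and untreated KO quadriceps 9 of 10 fell and 0 rose, against 40.6% of all genes called and 17.1% called down, and the median was -0.77 beside 0.05 over all genes. Scaled to library totals, the all-gene median was -0.24, the calls went from 3325 up and 2411 down to 1436 and 5013, and all 10 were called down. The treated libraries did not overlap those of KO for 8 of the 10, and for 49.4% of all genes. Ctss was 10.0, 4.71 and 5.48 in treated KO beside 28.1 to 41.7 in KO, and fell by 2.32 ± 0.28 (limma adjusted p = 2.76e-05). Ctsk was 7.17, 6.59 and 6.58 beside 10.8 to 19.3, and fell by 1.12 ± 0.21 (limma adjusted p = 9.41e-04). These libraries were all below the KO libraries. Ctsl was 94.4, 107 and 90.4 (fell by 0.83 ± 0.08), Ctsb 435, 412 and 461 (fell by 0.73 ± 0.08) and Ctsz 37.3, 32.5 and 34.7 (fell by 0.81 ± 0.12). Ctsh fell by 1.00 ± 0.22, Ctsd by 0.48 ± 0.12, Ctsa by 0.42 ± 0.13 and Ctsc by 0.36 ± 0.13. Ctsf was 29.3 ± 1.94 against 29.0 ± 2.32 and was not called (limma adjusted p = 0.941). The call of Ctsa was lost without KO replicate 6 (limma adjusted p = 0.0638) or 8 (0.0544) or treated replicate 21 (0.0936), and that of Ctsc without KO replicate 6 (0.149) or 7 (0.131) or treated replicate 22 (0.175). Of the 12 macrophage markers 10 were called down (median -1.43), their sum was 60.5 to 141 in treated KO, and Ctss stood at 0.0577 to 0.0778 of it. In the same comparison 5 of 6 endothelial markers were called up (sums of 147 to 204 in KO and 288 to 427 in treated KO), as were 3 of 6 muscle markers (126613 to 149278 and 213804 to 228124), and 1 of 6 fibroblast markers was called down. Their part in the cathepsin values was not tested.

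Against WT of the same background, 0 of 10 cathepsins were called in treated quadriceps by limma or edgeR, against 2.98% of all genes called. An unadjusted limma p under 0.05 was found for 1 of 10 cathepsins and for 3105 of all 14113 genes. The median was -0.0025 beside 0.02 over all genes, and differences ran from -0.12 to 0.43. The treated and WT libraries of Ctsl (90.4 to 107 against 75.4 to 84.0) and of Ctsk (6.58 to 7.17 against 4.71 to 5.15) did not overlap, as for 23.9% of all genes. Their differences were 0.27 ± 0.08 (limma adjusted p = 0.0896) and 0.43 ± 0.21 (limma adjusted p = 0.253). That a gene was not called here does not show that it returned to the WT level. Treated KO vs KO and treated KO vs WT share the treated libraries, and KO vs WT shares the KO and WT ones, so these 3 comparisons are not independent.

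**Figure D3:**
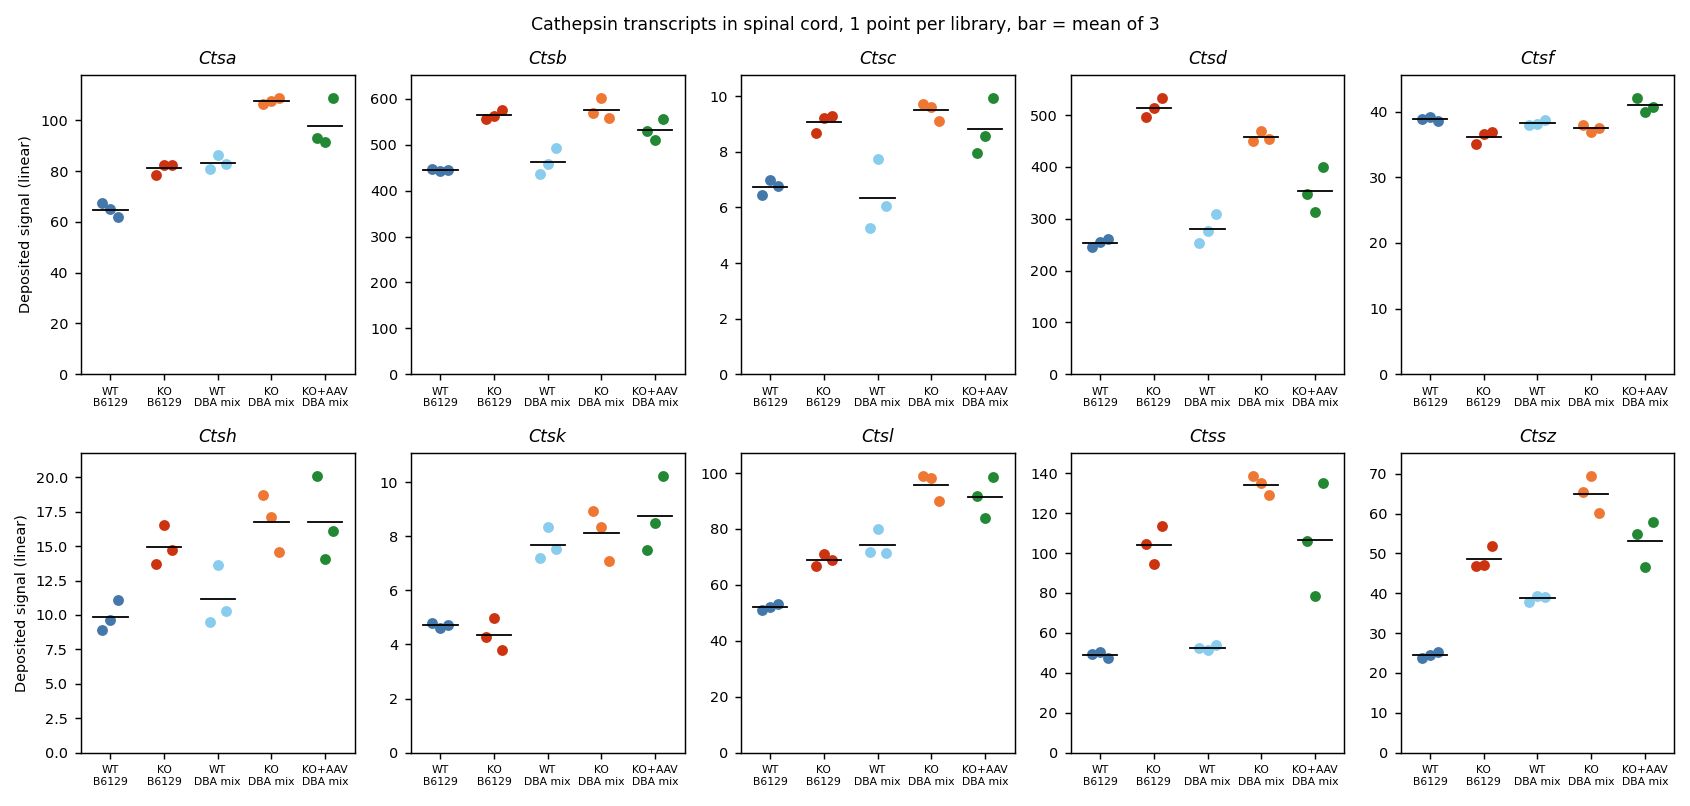
Deposited signal (linear y axis from 0) of the 10 cathepsins in spinal cord by group, with 1 point per library and a bar at the mean of 3. KO libraries of Ctss, Ctsd and Ctsz lie above WT on both backgrounds, and treated libraries of Ctsd (313 to 399) and Ctsz (46.5 to 58.0) lie between those groups, while those of Ctss (78.4 to 135) reach into the KO range.

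In spinal cord most cathepsins rose in KO as well, with Ctss, Ctsd and Ctsz at the top. On B6129 6 of 10 rose and 0 fell, against 1.16% of all genes called and 0.998% called up, and on DBA mix 8 of 10 rose and 0 fell, against 13.0% and 7.16%. The medians were 0.40 and 0.46 beside -0.02 and -0.01 over all genes. Libraries did not overlap for 9 of 10 cathepsins on each background, and for 23.9% and 29.2% of all genes. Among these Ctsf was lower in KO, at 35.0 to 36.9 against 38.6 to 39.2 in WT on B6129. On DBA mix its values were 36.9 to 37.9 against 38.0 to 38.7. Ctss was 49.5, 50.5 and 47.4 in WT and 104, 94.7 and 114 in KO on B6129 (1.07 ± 0.13, limma adjusted p = 5.66e-04). On DBA mix Ctss was 52.3, 51.5 and 53.8 in WT and 139, 135 and 129 in KO (1.34 ± 0.13, limma adjusted p = 4.16e-05). Every KO library was again above every WT library, and the WT level was itself far above that of muscle.

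Ctsd was 245, 255 and 261 in WT and 497, 513 and 534 in KO cord on B6129 (1.02 ± 0.08, limma adjusted p = 6.58e-06). On DBA mix it was 253, 277 and 309 in WT and 451, 470 and 454 in KO (0.72 ± 0.08, limma adjusted p = 1.37e-04). Its cord libraries were separated by a wide gap on both backgrounds. Ctsz was 23.7, 24.4 and 25.3 in WT and 47.0, 47.2 and 51.8 in KO on B6129 (0.98 ± 0.07, limma adjusted p = 5.30e-06), and 37.9, 39.2 and 39.1 and then 65.6, 69.5 and 60.1 on DBA mix (0.74 ± 0.07). Ctsl rose by 0.40 ± 0.06 and 0.36 ± 0.06, Ctsb by 0.34 ± 0.05 and 0.32 ± 0.05, and Ctsa by 0.32 ± 0.06 and 0.37 ± 0.06. Ctsh was called on DBA mix (0.58 ± 0.15) and not on B6129 (0.58 ± 0.15, limma adjusted p = 0.0853), and so was Ctsc (0.56 ± 0.12, and 0.40 ± 0.12 with adjusted p = 0.147). The call of Ctsh on DBA mix was lost without KO replicate 6 or 7 or WT replicate 1 or 4, and that of Ctsa on B6129 without KO replicate 2 or 3 or WT replicate 6. Ctsk (-0.11 and 0.07) and Ctsf (-0.10 and -0.03) were called on neither. The KO effect differed between backgrounds for 0 of 10 by limma and by edgeR, against 0.524% of all genes called. An unadjusted limma p under 0.05 was found for 2 of 10 cathepsins and for 1860 of all 15838 genes. These members were Ctsd and Ctsz, both with the smaller rise on DBA mix.

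Microglia and macrophage markers rose here too. Of the 12, 10 were called up on B6129 (median 1.59) and 12 on DBA mix (1.12), and the sum was 164 to 174 in WT and 384 to 406 in KO on B6129, and 181 to 197 and 386 to 442 on DBA mix. Of 6 microglia markers 2 and 5 were called up, with sums of 148 to 156 in WT and 211 to 232 in KO on B6129. Ctss stood at 0.272 to 0.309 of the 12-marker sum in WT and 0.244 to 0.280 in KO on B6129, which overlap, and at 0.272 to 0.290 and 0.305 to 0.359 on DBA mix. On DBA mix 3 of 6 endothelial markers were called up as well (sums of 58.0 to 63.0 in WT and 84.3 to 96.3 in KO), against 0 of 6 on B6129 by limma. The mean signal of Gfap, an astrocyte gene, was 928 in WT and 1878 in KO on B6129, and 1081 and 2841 on DBA mix. Gfap is 1 of 6 cord markers, and the list as a whole did not rise with it. Of the 6, 1 was called up and 0 down on B6129 (median -0.13), and 1 up and 1 down on DBA mix (median -0.07). The part of these cells in the cathepsin values was not tested. Muscle markers in cord summed to 107 to 497 on B6129 and 244 to 1590 on DBA mix, well under the quadriceps libraries.

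Treatment was not followed by a called change of any cathepsin in cord. Between treated and untreated KO cord 0 of 10 were called by limma and 0 by edgeR, with 6 at an unadjusted p under 0.05. Of all genes 0% were called by limma (2 genes by edgeR), and 1697 had an unadjusted p under 0.05. The cathepsin median was -0.11 beside -0.00059 over all genes, and 4 of 10 cathepsins did not overlap (Ctsb, Ctsd, Ctsz and Ctsf) beside 12.3% of all genes. Of these Ctsf was the one with higher values in treated cord, at 42.1, 40.0 and 40.8 beside 36.9 to 37.9 in KO (0.13 ± 0.04, limma adjusted p = 0.235). Ctsd was 348, 313 and 399 in treated KO beside 451 to 470 in KO (-0.38 ± 0.08, limma adjusted p = 0.10). Ctsz was 55.0, 46.5 and 58.0 (-0.29 ± 0.07, limma adjusted p = 0.165) and Ctss 106, 78.4 and 135 (-0.37 ± 0.13, limma adjusted p = 0.315). Treated replicate 24 was the highest of the 3 for each, and without it Ctsd (-0.47, limma adjusted p = 0.0215) and Ctss (-0.56, limma adjusted p = 0.0396) were called. Against WT, 8 of 10 cathepsins were called higher in treated cord, against 16.8% of all genes called and 8.81% called up, with a median of 0.32. Ctss led (0.98 ± 0.13, limma adjusted p = 5.48e-04), then Ctsh (0.57 ± 0.15), Ctsc (0.45 ± 0.12), Ctsz (0.45 ± 0.07), Ctsd (0.34 ± 0.08), Ctsl (0.29 ± 0.06), Ctsa (0.23 ± 0.06) and Ctsb (0.20 ± 0.05). Libraries did not overlap for 9 of 10, and for 30.2% of all genes. With the 2 groups alone in the fit 2 were called, and without a single library 4 to 8: 5 without treated replicate 24, 4 without WT replicate 1 and 5 without WT replicate 4. Macrophage markers were called up in 10 of 12 cases in that comparison, as were 5 of 6 microglia and 2 of 6 fibroblast markers. So were 2 of 6 endothelial and 1 of 5 Schwann markers, and cord markers had 1 of 6 up and 1 down. The macrophage sum was 246 to 372 in treated cord and 386 to 442 in untreated KO cord. Between these 2 groups 0 of 12 macrophage markers were called by limma (median -0.49). The part of these cells in the cathepsin values was not tested.

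**Figure D4:**
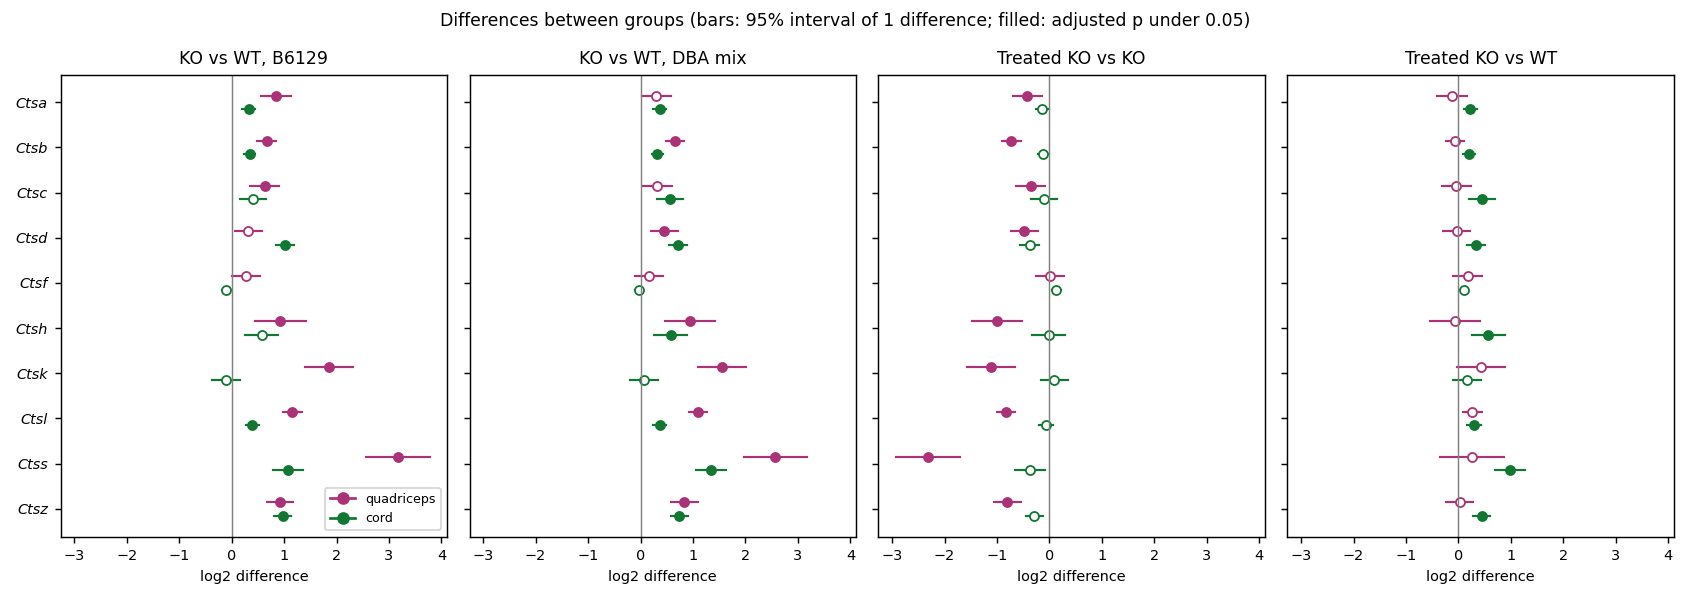
log2 differences (x axis) of the 10 cathepsins in 4 comparisons, quadriceps in purple and cord in green. Bars are 95% intervals of 1 difference and filled points have an adjusted p under 0.05. Ctss has the largest quadriceps differences (3.17 and 2.57 in KO vs WT), and the cord points of treated KO vs KO are all open.

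The tissues were compared in 1 fit of all 30 libraries. The KO effect was larger in quadriceps than in cord on both backgrounds for Ctss (2.09 ± 0.33 and 1.23 ± 0.33), Ctsk (1.96 ± 0.25 and 1.48 ± 0.25), Ctsl (0.76 ± 0.10 and 0.73 ± 0.10) and Ctsb (0.32 ± 0.10 and 0.34 ± 0.10). On B6129, where 6 of 10 differed upward and 1 downward against 25.4% of all genes called (12.2% upward and 13.1% downward), Ctsa (0.52 ± 0.15) and Ctsf (0.37 ± 0.13) were also larger and Ctsd smaller (-0.70 ± 0.15, limma adjusted p = 0.00134). With the animal as a block Ctsf lost its call (limma adjusted p = 0.0602), and also without any of the 3 cord KO or 3 cord WT libraries, quadriceps KO replicate 1 or quadriceps WT replicate 4. Ctsb lost its B6129 call without quadriceps WT replicate 4 (0.23, limma adjusted p = 0.0565). On DBA mix 4 of 10 differed, against 32.3% of all genes called and 13.6% called upward, and Ctsd did not (-0.26 ± 0.15). The treatment effect was more negative in quadriceps for 6 of 10, against 33.6% of all genes called and 14.0% called downward: Ctss (-1.95 ± 0.33), Ctsk (-1.21 ± 0.25), Ctsh (-0.99 ± 0.28), Ctsl (-0.76 ± 0.10), Ctsb (-0.61 ± 0.10) and Ctsz (-0.51 ± 0.14). Scaled to library totals, the all-gene medians of these 3 comparisons were 0.23, 0.23 and -0.23, and the calls went from 1615 up and 1731 down to 3640 and 606, from 1788 and 2467 to 3832 and 867, and from 2586 and 1850 to 1006 and 3839.

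Without knockout, Ctss was lower in quadriceps than in cord (-3.64 ± 0.23 on B6129 and -3.20 ± 0.23 on DBA mix) and Ctsc (2.46 ± 0.12 and 2.83 ± 0.12) and Ctsd (1.87 ± 0.11 and 1.71 ± 0.11) were higher. Ctsf was lower (-0.66 ± 0.09 and -0.55 ± 0.09). These 4 kept their direction with library totals, quantile normalization, median centring and edgeR. In total 6 of 10 cathepsins were called on B6129, 4 up and 2 down, where 81.3% of all genes were called (44.9% up and 36.4% down). On DBA mix 2 were called up and 3 down, where 82.5% of all genes were called (45.1% up and 37.4% down). Libraries of the tissues did not overlap for 8 and 5 of the 10, and for 85.4% and 82.4% of all genes, and these shares of cathepsins are at or below the background. Scaled to library totals the all-gene medians went from 0.14 and 0.13 to -1.06 and -0.77, and Ctsl, Ctsz and Ctsk on B6129 and Ctsa and Ctsl on DBA mix turned negative, so no direction is given for them.

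Between the WT groups, Ctsa was higher on DBA mix than on B6129 in both tissues: 78.2, 88.8 and 103 against 55.2 to 58.5 in quadriceps (0.65 ± 0.13, limma adjusted p = 0.0185), and 80.8, 86.2 and 82.6 against 62.1 to 67.2 in cord (0.36 ± 0.06, limma adjusted p = 6.58e-05). In quadriceps it was the 1 of 10 cathepsins called, against 2.57% of all genes called and 1.39% called up (libraries did not overlap for 4 of 10, and for 21.9% of all genes), and it lost the call without WT replicate 4, 5 or 6 of B6129 or replicate 4 of DBA mix. In cord 4 of 10 were called up, against 66.8% of all genes called and 32.3% up: Ctsa, Ctsk (0.65 ± 0.12), Ctsl (0.51 ± 0.06) and Ctsz (0.65 ± 0.07). Libraries did not overlap for 5 of 10, and for 71.6% of all genes. In the same comparison all 6 endothelial markers (median -1.34) and all 5 blood markers (median -1.78) were called down, and mitochondrial genes took 13.2% to 17.1% of cord reads on DBA mix beside 6.99% to 7.70% on B6129, over all groups. Their part in the cathepsin values was not tested. Scaled to library totals the cord all-gene median went from -0.02 to -0.34 and the calls from 5123 up and 5462 down to 2744 and 8507. Ctsa was then not called (0.02, limma adjusted p = 0.783), and Ctsk (0.34), Ctsl (0.17) and Ctsz (0.32) were still called up.

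Genes that act with the cathepsins were taken from 5 lists. Among other lysosomal peptidases, 3 of 6 tested were called up in KO quadriceps on B6129, and on DBA mix 3 up and 1 down. Over all genes 16.7% and 17.1% were called up in these comparisons and 35.8% and 39.4% in either direction, and 17.1% were called down with treatment. Lgmn, the legumain that activates cathepsins, was 32.4 in WT and 124 in KO on B6129 (means, 1.90 ± 0.13), rose by 2.00 ± 0.13 on DBA mix and fell by 2.15 ± 0.13 with treatment. The carboxypeptidase Prcp (0.69 ± 0.14 and 1.03 ± 0.14) and the dipeptidyl peptidase Dpp7 (0.57 ± 0.14 and 0.50 ± 0.14) also rose, and Ctso fell by 0.50 ± 0.12 on DBA mix. Among cathepsin inhibitors 2 of 3 tested rose in both: cystatin B, Cstb (1.29 ± 0.11 and 1.24 ± 0.11), and Cst6 (1.06 ± 0.09 and 1.37 ± 0.09). Both fell with treatment, by 1.70 ± 0.11 and 1.51 ± 0.09. Against WT, 1 of 3 inhibitors was called in treated quadriceps, beside 2.98% of all genes. This was Cstb, which was lower than in WT (-0.46, limma adjusted p = 0.0435). Scaled to library totals it was not called (-0.46, limma adjusted p = 0.0749). In cord Cst7, an inhibitor of cathepsins made by immune cells, rose from 0.143 to 3.82 on B6129 and from 0.20 to 2.12 on DBA mix (means), from WT libraries of 3 to 10 reads. Its KO libraries held 169, 121 and 139 reads on B6129. On DBA mix they held 45, 120 and 31, so replicate 7 weighed most in that mean.

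A list of 10 partners and substrates of cathepsins held Glb1, Neu1, Cd74, Psap, Grn and genes of class II presentation (H2-Aa, H2-Ab1, H2-Eb1, H2-DMa and H2-DMb1). Of these, 9 of 10 rose in KO quadriceps on B6129 and 8 of 10 on DBA mix, and 7 fell with treatment. Over all genes 16.7% and 17.1% were called up, and 17.1% were called down with treatment. The invariant chain Cd74, a substrate of Ctss, rose by 2.37 ± 0.23 and 1.83 ± 0.23 and fell by 1.61 ± 0.23 with treatment, and the class II chain H2-Aa rose by 2.64 ± 0.28 and 2.39 ± 0.28. In KO cord 1 of 10 was called up on B6129 and 3 of 10 on DBA mix, beside 0.998% and 7.16% of all genes. Progranulin, Grn (0.86 ± 0.07 and 0.90 ± 0.07), a precursor that cathepsins cleave, led them. Of 12 genes of mannose 6-phosphate sorting, 3 rose and 2 fell in KO quadriceps on B6129, and 3 and 3 on DBA mix, near the 35.8% and 39.4% of all genes called. Scaled to library totals the falls of Gnptab on B6129 and of Gga1 on DBA mix were not called, and Vps35 changed sign on both. Gga2 rose (0.77 ± 0.13 and 0.63 ± 0.13) and the receptor M6pr rose slightly (0.25 ± 0.07 and 0.26 ± 0.07), while the sorting receptor Sort1 fell by 0.57 ± 0.08 on DBA mix. Of 3 tested MiT/TFE factors, Mitf fell in both (by 0.44 ± 0.11 and 0.60 ± 0.11) and Tfeb by 0.29 ± 0.11 on DBA mix. Scaled to library totals Mitf was no longer called on B6129 (-0.16), Ctso no longer on DBA mix (-0.21), and the sign of Tfeb turned (0.01). Between treated and untreated KO quadriceps 2 of 3 factors were called up, beside 40.6% of all genes called in either direction. They were Tfeb (0.47, limma adjusted p = 0.00275) and Mitf (0.33, limma adjusted p = 0.0222). Neither was called there with library totals (0.17 and 0.03). In cord 0 of 3 factors were called in either KO comparison by limma.

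Genes most like each cathepsin over the 15 libraries of a tissue were found by the root mean square difference of gene-centred log2 values. In quadriceps Ctss was closest to the macrophage gene Mpeg1 (0.22, where the median over all genes was 1.42) and then to Slc25a24 (0.26), which is not on the marker list. In cord it was closest to Laptm5 (0.13, median 0.66) and Fcer1g (0.20), which are both on that list. In cord Ctsd was closest to Grn (0.12, median 0.49) and Plek, Ctsz to Apoe (0.15) and Ctsb to Mfsd1 (0.06). In quadriceps Ctsb was closest to Atox1 (0.09), Ctsl to Galk2 (0.12), Ctsz to Tmed3 (0.11) and Ctsk to Pam (0.25). These values are descriptions across libraries that share groups.

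The members lie on 7 chromosomes. On GRCm38 Ctsk (chr3:95499256-95509362) and Ctss (chr3:95526786-95556403) are neighbours on the plus strand, and Ctsa (chr2:164832873-164841032) and Ctsz (chr2:174427493-174439039) share a chromosome, as do Ctsd (chr7:142375911-142388038) and Ctsc (chr7:88278085-88310888). All are protein-coding. The annotation places Neurl2 and Pltp over parts of Ctsa, Fdft1 over Ctsb and Nelfcd over Ctsz, all on the opposite strand, and since the strand use of the counting is not given, reads from these overlaps cannot be told apart. On the same strand Gm49369 overlaps Ctsd, Gm49230 overlaps Ctsl and Hmgb1-ps5 overlaps Ctss, where strand would not separate the reads.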

How the data were processed

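Poly(A) RNA libraries (single-end reads, per the labels) were measured in quadriceps and cord of 15 mice. The authors deposited 1 signal value per gene and library. It equals (reads + 0.5) over a scaled library size: whole reads were recovered for all values within 0.001. Per the submitters' processing notes, cutadapt, RSEM, edgeR, limma and GRCm38 were used, and their order and versions are not given in the sources used here. Log2(signal + 0.5) was tested with limma 3.58.1 (R 4.3.3) over all groups of a tissue, or all 30 libraries for tissue comparisons, with Benjamini-Hochberg adjustment over the genes that reached a signal of 1 in 3 or more libraries (14113 in quadriceps, 15838 in cord, 13187 in both). A fold change on this scale understates low genes. edgeR 4.0.16 on the recovered reads was an alternative. The code was tested on simulated data. Replicates are animals. Quadriceps and cord share animals per the labels (sample pair), and the deviations of the 2 tissues of an animal correlated (r 0.109 to 0.354 in 15 animals). For treated cord, columns were matched to samples on the animal number that titles carry, since 1 column name is given for 2 samples. Named genes are the 10 members, list genes and the 2 genes most like each member. Members and lists were chosen with earlier results of these data known.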

Additional observations from a re-analysis of the deposited data

Results flagged for a closer look

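The effect of Gaa loss or of treatment differed between quadriceps and cord for 17 combinations of cathepsin and comparison, each tested as a difference of 2 log2 differences (quadriceps minus cord, limma, adjusted over all genes). For Gaa loss on B6129 the difference was 2.09 for Ctss, 1.96 for Ctsk, 0.76 for Ctsl, 0.52 for Ctsa, 0.37 for Ctsf, 0.32 for Ctsb and -0.70 for Ctsd. On DBA mix it was 1.48 for Ctsk, 1.23 for Ctss, 0.73 for Ctsl and 0.34 for Ctsb. For treatment it was -1.95 for Ctss, -1.21 for Ctsk, -0.99 for Ctsh, -0.76 for Ctsl, -0.61 for Ctsb and -0.51 for Ctsz. Ctsd on B6129 was the 1 of these with the larger rise in cord: its signal went from 254 to 515 in cord and from 929 to 1155 in quadriceps (means). The KO groups of DBA mix enter both its KO and its treatment comparison.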

How the results depend on the processing

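Libraries held 16854081 reads or more, and the member with the fewest reads in a library had 43. With pseudocounts of 2 or 0, no filter or median centring, all 170 cathepsin results kept their direction and side of the threshold. A sign change was counted only where either value was called. Scaling to library totals reversed Ctsa (-0.88) and Ctsl (-0.86) between quadriceps and cord in WT on DBA mix, Ctsk (-1.10), Ctsl (-0.73) and Ctsz (-0.94) there on B6129, Ctsb (-0.29) and Ctsd (-0.21) between WT backgrounds in cord, and Ctsf (-0.29) in treated KO vs KO quadriceps. Quantile normalization reversed Ctsa (-0.28) and Ctsl (-0.24) between tissues on DBA mix and Ctsb (-0.23) between WT backgrounds in cord. The cause was not tested. Counts of called cathepsins moved with library totals to 7 (cord WT backgrounds, from 4), to 10 for the tissue difference in treatment effect (from 6) and to 10 between tissues in WT on B6129 (from 6) and DBA mix (from 5, and 9 with quantile normalization). With the 2 groups alone, treated KO vs WT cord had 2 (from 8). Leaving out 1 library gave 8 to 10, 7 to 8, 7 to 9 and 0 to 0 called cathepsins in quadriceps (KO vs WT on B6129 and DBA mix, treated KO vs KO, treated KO vs WT), 5 to 6, 7 to 8, 0 to 2 and 4 to 8 in cord, and 0 to 1 and 4 to 5 between WT backgrounds in quadriceps and cord. With the animal as a replicate block, calls were 6 (from 7), 4 and 6 for the tissue differences in KO effect on B6129, on DBA mix and in treatment effect, and 8 (from 6, with Ctsa and Ctsh added) and 5 between tissues in WT. No paired analysis was possible within a tissue because each animal gives 1 library there. With the longest transcript 4 of 10 members kept their per-kilobase rank in KO cord on DBA mix, 4 in KO quadriceps on B6129, 4 in KO and 4 in WT quadriceps on DBA mix, 5 in WT cord on B6129 and 6 in treated cord. Over all genes, counts moved by more than 1.5 times with only the groups compared in treated KO vs WT quadriceps (421 to 17) and cord (2654 to 531), between WT quadriceps (363 to 156), in KO vs WT cord on B6129 (183 to 297) and DBA mix (2061 to 570, and 1320 with library totals), and for the background difference in KO effect in cord (83 to 146, and 49 with library totals) and, with edgeR, in quadriceps (40 to 10). The split of calls in treated KO vs WT went from 273 up and 148 down to 194 and 196 (median centring), 208 and 199 (edgeR) or 170 and 148 (library totals) in quadriceps, and from 1395 and 1259 to 1127 and 1606 (median centring) in cord. In treated KO vs KO cord, all-gene calls were 0 to 4 over the settings that keep all libraries and 0 to 35 without 1 library. Leaving out 1 library moved other all-gene counts to 124 to 448 (treated KO vs WT quadriceps), 11 to 116 (background difference in KO effect, quadriceps) and 43 to 95 (cord), 187 to 596 (WT backgrounds, quadriceps), 101 to 145 and 918 to 1892 (KO vs WT cord on B6129 and DBA mix) and 1462 to 2598 (treated KO vs WT cord), and the background shares move with them.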
